A study of Homo sapiens with 9 samples.

Results

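The replication-dependent core histone genes encode the H2A, H2B, H3 and H4 proteins that package newly copied DNA. They were taken as the protein-coding genes whose symbol is H2AC, H2BC, H3C or H4C followed by a number, which gave 60 of the 60664 genes in the count tables: 16 for H2A, 17 for H2B, 13 for H3 and 14 for H4. A further 12 genes with such symbols are listed as pseudogenes and were left out. Total RNA came from Flp-In T-REx 293, a human embryonic kidney cell line engineered so that 1 inserted construct can be switched on with tetracycline. The TTC33 knock-down (miTTC33, 3 libraries) and the CCDC97 knock-down (miCCDC97, 3 libraries) express a microRNA against the named gene from such a promoter, and for the control (3 libraries) the labels name no microRNA. Cells of all 3 groups, the control included, received tetracycline at 100 ng/ml for 3 days. The labels give 1 line per group and do not say whether replicates were separate cultures. A p-value here thus reflects only how libraries varied within groups, and that variation may be technical. All 3 groups were fitted together, so a p-value also depends on the spread within the group that is not being compared.

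Core histone genes lie in clusters, have no introns in their main transcripts and are transcribed mostly in S phase, under the coactivator NPAT. Their mRNAs are unusual in ending not with a poly(A) tail but with a conserved stem-loop, which the stem-loop binding protein SLBP holds from processing through translation to decay. Some of these genes can also give polyadenylated transcripts that run past the stem-loop. Each nucleosome holds the 4 types in equal numbers, H2A paired with H2B and H3 with H4.

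The stem-loop was found in the GENCODE release 29 transcripts of 28 members, and in the 32 others no annotated transcript reached one. The sequences below show the forms, 1 or more members per histone type, with the 16 bases of the stem-loop in capitals and 5 bases on each side in lower case, given as the transcript reads.
H2AC8: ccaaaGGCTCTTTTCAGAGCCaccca
H2BC21: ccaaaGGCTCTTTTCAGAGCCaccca
H3C10: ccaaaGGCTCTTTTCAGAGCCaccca
H2BC4: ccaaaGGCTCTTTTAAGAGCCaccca
H4C5: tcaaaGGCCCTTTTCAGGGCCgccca
H4C14: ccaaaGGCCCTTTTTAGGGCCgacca
The 3 members at the top, of 3 histone types, share all letters of this window. Their stem-loop, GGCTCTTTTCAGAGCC, was the most frequent form, found in 15 members. Among these 15, H2BC15 reached it only in an annotated transcript that runs on to the stem-loop beside H2AC16. All 7 H4 members with a stem-loop differed from that form by T4C and A13G, counted from 1 at the first capital, and positions 4 and 13 face each other in the stem. Of these 7, 3 also carried C10T in the loop, as H4C14 does, and 4 H2B or H3 members carried C10A there, as H2BC4 does. On GRCh38 the stem-loop lies at chr6:26217417-26217432 in H2AC8 (plus strand), at chr1:149886188-149886203 in H2BC21 (minus strand), at chr6:27810516-27810531 in H3C10 (plus strand), at chr6:26123472-26123487 in H2BC4 (minus strand), at chr6:26205001-26205016 in H4C5 (plus strand) and at chr1:149833032-149833047 in H4C14 (plus strand).

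The promoters differed by histone type as well. In the RefSeq windows from 250 bases before to 50 bases after the start site, present for 55 members, the octamer ATTTGCAT on either strand occurred in 11 of 15 H2A windows (73.3%), in 14 of 17 H2B windows (82.4%), in 1 of 11 H3 windows and in 0 of 12 H4 windows, against 1.77% of all 35116 promoter windows. The 1 H3 window, of H3C4, is the same stretch as that of H2AC7, because both RefSeq genes begin at the same base. CCAAT occurred in 100% of the H2A, H2B and H3 windows and in 25% of the H4 windows, against 34.6% of all windows. TATAAA occurred in 80%, 70.6%, 72.7% and 50% of the H2A, H2B, H3 and H4 windows, against 11.5% of all. The octamer stretches of 2 divergent H2A and H2B pairs are shown because both genes of each pair share them, read in the direction of the H2B gene on the minus strand, with the octamer in capitals.
H2BC8: tgaattctttATTTGCATgaaaggccta
H2BC4: ttcatacctcATTTGCATagctctgccc
The H2BC8 stretch lies at chr6:26216719-26216746 and has its octamer 48 bases before the H2BC8 start and 192 bases before that of H2AC8 on the other strand. The H2BC4 stretch lies at chr6:26124032-26124059, with its octamer 123 bases before the H2BC4 start and 130 bases before that of H2AC6. The letters are a description of these windows and say nothing of what bound there.

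Libraries held between 21764203 and 36110891 counts assigned to genes. Reads aligned to several places made up 21.8% to 29.03% of the counts in TTC33 knock-down tables, 8.43% to 37.6% in CCDC97 knock-down tables and 8.76% to 18.2% in control tables, and were not assigned to genes; their part in the histone results was not tested. TTC33 mRNA fell to 9.67, 6.41 and 6.16 CPM in the TTC33 knock-down, against 37.7, 37.1 and 38.6 CPM in control (log2 fold change -2.34, SE 0.21; adjusted p by edgeR 0.000106). CCDC97 mRNA fell to 15.9, 15.3 and 15.7 CPM in the CCDC97 knock-down, against 60.6, 60.1 and 59.5 CPM in control (-1.94 ± 0.12, adjusted p = 1.24e-05). In the TTC33 knock-down CCDC97 mRNA rose, to 65.1, 81.31 and 95.78 CPM (0.426 ± 0.115, edgeR adjusted p = 0.0371). TTC33 mRNA did not pass in the CCDC97 knock-down, at 29.96, 52.49 and 47.03 CPM (0.191 ± 0.195, edgeR adjusted p = 0.632). Levels are given as CPM, the counts of a gene per 1e6 counts of its library after TMM scaling. By mean over the 9 libraries, 8 of 9 genes typical of HEK293 cells reached 1 CPM and none of the leukocyte, endothelial, hepatocyte or keratinocyte markers did, while 1 of 3 fibroblast markers did.

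Of the 60 members, 48 had enough counts to be tested. The 12 others (H2AC1, H2AC7, H2AC17, H2BC1, H2BC14, H3C3, H3C4, H3C8, H3C11, H4C6, H4C7 and H4C13) had at most 0 to 8 counts in any library. For H2AC7, H2AC17 and H3C4 from 88.0% to 100% of the annotated exon bases overlap another gene, so that counting may have passed such reads over. By mean level in control, 17 members had at least 100 CPM, 18 had 5 to 100 CPM and 25 had less. Counts were concentrated in few members, above all in H3. The member with most counts, H3C2, held 68.5% of the H3 counts in the TTC33 knock-down, 69.3% in the CCDC97 knock-down and 69.0% in control. The top member of each other type held 18.4% to 26.9% of its type's counts in any group: H2AC11 for H2A, H2BC12 for H2B and H4C3 for H4. These are shares of counts, not of molecules, since the annotated length runs from 297 bases in H4C7 to 5477 bases in H2BC15 and many members are annotated with the coding part only.

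Summed by histone type, core histone counts were higher in the CCDC97 knock-down than in control and about level with control in the TTC33 knock-down. The H2A sum was 1371.3 ± 248.7 CPM in the TTC33 knock-down, 1692 ± 85.68 CPM in the CCDC97 knock-down and 1301.2 ± 83.94 CPM in control (SD, n = 3). The H2B sum was 2248.3 ± 226.3 CPM in the TTC33 knock-down, 2854.8 ± 196.7 CPM in the CCDC97 knock-down and 2242.1 ± 146.5 CPM in control. In both types every CCDC97 knock-down library lay above every control library. The H3 sum was 670.61 ± 108.8 CPM in the TTC33 knock-down, 839.91 ± 88.85 CPM in the CCDC97 knock-down and 666.15 ± 61.71 CPM in control. The H4 sum was 1194.8 ± 100.2 CPM in the TTC33 knock-down, 1717.6 ± 220.7 CPM in the CCDC97 knock-down and 1332.1 ± 101.1 CPM in control. H3 and H4 libraries of the CCDC97 knock-down also lay above all controls, in H3 by a narrow margin, with 737.5 CPM in CCDC97 knock-down replicate 3 and 735.98 CPM in control replicate 3. The ratio of group means to control in the CCDC97 knock-down was 1.30 for H2A, 1.27 for H2B, 1.26 for H3 and 1.29 for H4. The TTC33 knock-down ratio was 1.05, 1.00, 1.01 and 0.897 for the same types. Over all members the sums were 4752.7, 5938.2 and 5764.3 CPM in TTC33 knock-down replicates 1, 2 and 3, 7145.7, 7646.5 and 6521.1 CPM in the CCDC97 knock-down and 5307, 5367.4 and 5950.2 CPM in control. TTC33 knock-down replicate 1 was below every control and the other 2 replicates were not. As these are bulk samples, more cells in S phase and more histone mRNA per cell cannot be told apart. Sums over the members were given no test.

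**Figure D1:**
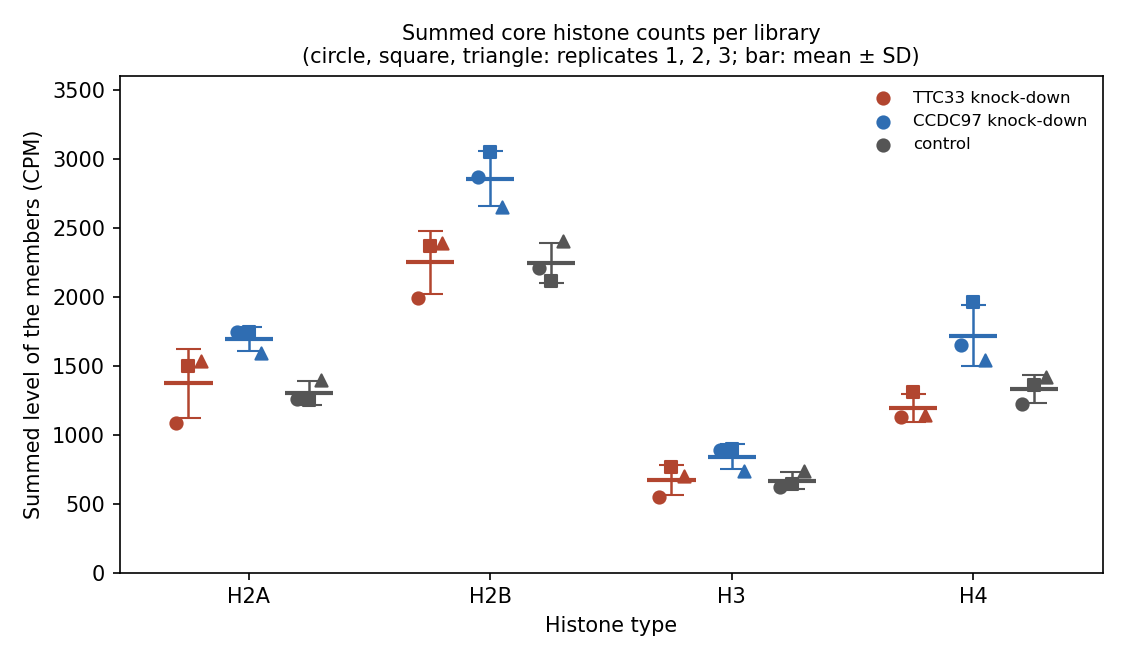
Summed level of the members of each histone type (y axis, CPM) in each library, by group; symbols mark replicates, and bars give mean ± SD (n = 3). In each type the 3 CCDC97 knock-down libraries lie above all control libraries, while TTC33 knock-down libraries overlap control.

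Gene by gene, 12 of the 48 tested members rose in the CCDC97 knock-down and 0 fell (edgeR quasi-likelihood test, adjusted over 18299 genes). Over all genes tested, 4.56% passed in either direction, 2.07% higher and 2.49% lower. The members that rose were H2AC4, H2AC8, H2AC13, H2AC15 and H2AC16 for H2A, H2BC4, H2BC5, H2BC8, H2BC10 and H2BC13 for H2B, H3C1 for H3 and H4C4 for H4. Of the 48, 45 had a log2 fold change above 0, against 50.1% of all genes, and the median was 0.33, against 0.00 over all genes. In 28 members all CCDC97 knock-down libraries lay above all control libraries, against 14.9% of all genes, and in 1 member they lay below, against 15.0%. No call was lower by DESeq2 either, where 8.04% of all genes passed. At an unadjusted p under 0.05, 29 members were higher and 1 lower, beside 1947 and 1818 of the 18299 genes. Each of the 36 members with a mean of at least 5 CPM had a log2 fold change above 0, the lowest being 0.05, and 11 of them rose.
The count of 12 depended on the libraries in the fit. Fits that each lacked 1 library called from 2 to 27 members higher. The count was 27, 8 and 10 when TTC33 knock-down replicate 1, 2 or 3 was absent, 11, 4 and 7 when CCDC97 knock-down replicate 1, 2 or 3 was absent, and 2, 3 and 6 when control replicate 1, 2 or 3 was absent. Over all genes, 835 (4.56%) passed with all libraries. Without TTC33 knock-down replicate 1, 2 or 3 the all-gene count was 1981 (10.6%), 587 (3.12%) or 693 (3.69%). Without CCDC97 knock-down replicate 1, 2 or 3 it was 1860 (9.88%), 256 (1.37%) or 330 (1.76%). Without control replicate 1, 2 or 3 it was 203 (1.09%), 219 (1.17%) or 241 (1.29%). The all-gene count moved in the same direction as the member count, except without CCDC97 knock-down replicate 1. There it rose while the member count was 11. The median over the members stayed between 0.28 and 0.38 in these 9 fits.

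**Figure D2:**
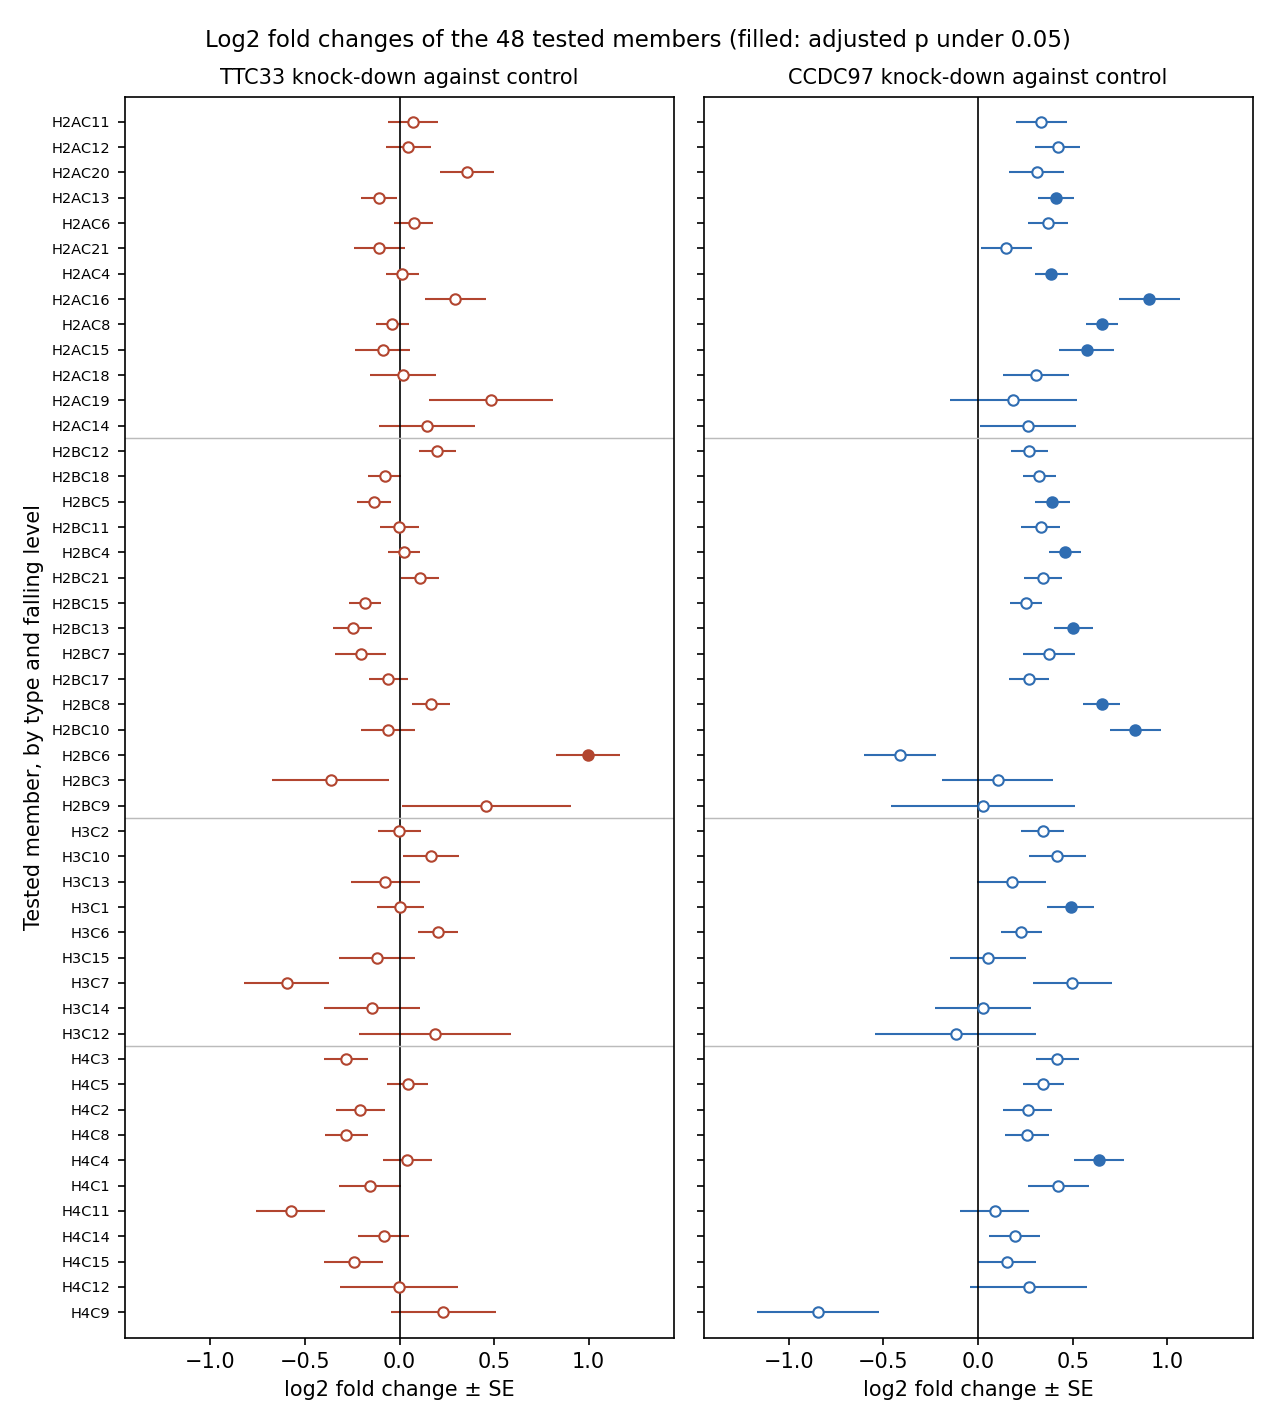
Log2 fold change (x axis, ± SE) of the 48 tested members (y axis, by histone type and falling level) in the TTC33 knock-down (left) and the CCDC97 knock-down (right) against control; filled points had an edgeR adjusted p under 0.05. In the right panel 45 of 48 points lie above 0 and 12 are filled, and in the left panel 22 lie above 0 and 1, H2BC6, is filled.

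In the TTC33 knock-down 1 member, H2BC6, rose and 0 fell (edgeR, adjusted over all genes). Over all genes 11.9% passed, 6.50% higher and 5.44% lower. At an unadjusted p under 0.05 there were 2 members higher and 5 lower, beside 2974 and 2730 of the 18299 genes. DESeq2 called 1 higher and 1 lower, while 16.5% of all genes passed. The median log2 fold change was -0.00, against 0.00 over all genes, and 22 of 48 members were above 0, against 50.6% of all genes. All TTC33 knock-down libraries lay above all controls in 2 members, against 19.0% of all genes, and below them in 7 members, against 17.8%. Replicate 1 of this group differed from the others in nearly every member. Among the 36 members whose mean reached 5 CPM, 2 exceeded the control mean in TTC33 knock-down replicate 1, 27 in replicate 2 and 25 in replicate 3. Without replicate 1 the fit called 9 members higher and 2 lower, while 34.9% of all genes passed. The fits without CCDC97 knock-down replicate 1 or replicate 2 each called 1 member lower, while 16% and 10% of all genes passed.

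**Figure D3:**
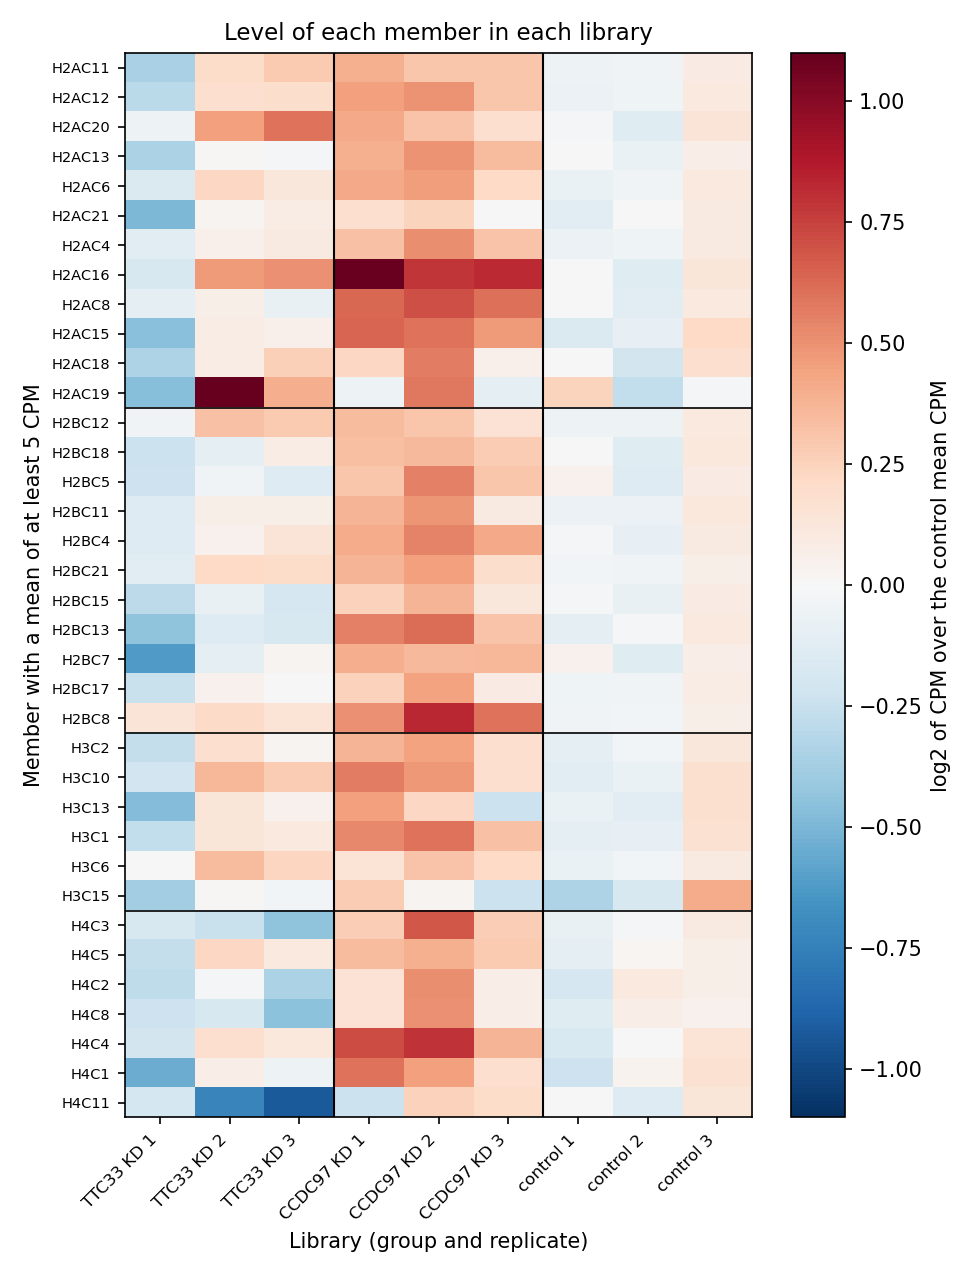
Log2 ratio of the CPM of each library to the mean CPM of control (colour) for the 36 members with a mean of at least 5 CPM (rows, by histone type and falling level) in the 9 libraries (columns, by group). The CCDC97 knock-down columns are red almost throughout, with 34, 36 and 33 of 36 members above the control mean; TTC33 knock-down replicate 1 is blue in 34 of 36 members; control replicate 3 is above the control mean in 35 of 36.

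Set directly against each other, the TTC33 knock-down had 24 members lower and 2 higher than the CCDC97 knock-down, and 22 of the 24 lower members had a mean of at least 5 CPM. Over all genes 21.5% passed in this contrast, 10.2% lower and 11.3% higher. The median over the members was -0.36, against 0.00 over all genes. By type, 6 of 13 tested H2A members, 10 of 15 H2B members, 2 of 9 H3 members and 6 of 11 H4 members were lower in the TTC33 knock-down. In 26 members all TTC33 knock-down libraries lay below all CCDC97 knock-down libraries, against 14.5% of all genes, and in 2 they lay above, against 15.9%. Without CCDC97 knock-down replicate 2 the count of lower members was 13 and that of higher members 1, and 8.17% of all genes passed. The higher count was also 1 without TTC33 knock-down replicate 3 (8.65% of all genes passed) or control replicate 3 (15.2%). It was 1 as well without CCDC97 knock-down replicate 1 (32.9%) or CCDC97 knock-down replicate 3 (9.74%). In the fit lacking TTC33 knock-down replicate 1 the higher count was 3 (41.6%). This contrast shares both groups with the comparisons against control and adds no independent samples.

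H2A forms one dimer unit with H2B. The H2A member with most counts was H2AC11 (ENSG00000196787, chr6:27133043-27133535, plus strand), at 264.7, 389.8 and 411.6 CPM in the TTC33 knock-down, 443.6, 417.4 and 417.5 CPM in the CCDC97 knock-down and 325.9, 328.9 and 359.1 CPM in control. H2AC12 had 167.9, 233.9 and 235.5 CPM in the TTC33 knock-down, 281.4, 289.9 and 254.7 CPM in the CCDC97 knock-down and 196.3, 199 and 221.9 CPM in control. H2AC20, in the chromosome 1 cluster, had 171.9, 244.4 and 270.1 CPM in the TTC33 knock-down, 239.4, 221.8 and 203 CPM in the CCDC97 knock-down and 176.2, 163.3 and 197 CPM in control. All 3 had every CCDC97 knock-down library above every control library, and in each the TTC33 knock-down libraries overlapped the controls, with replicate 1 the lowest of its group. Their log2 fold changes in the CCDC97 knock-down were 0.33 ± 0.13, 0.42 ± 0.12 and 0.31 ± 0.14 (SE), with edgeR adjusted p of 0.181, 0.0708 and 0.252, so none passed. The TTC33 knock-down gave 0.07 ± 0.13, 0.05 ± 0.12 and 0.36 ± 0.14, with adjusted p of 0.745, 0.821 and 0.121. Without TTC33 knock-down replicate 1 all 3 passed in the CCDC97 knock-down (adjusted p = 0.0057, 0.0021 and 0.0295), and H2AC11 and H2AC20 passed as higher in the TTC33 knock-down (log2 fold change 0.24 and 0.52).

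H2AC8 and H2AC16 rose in the CCDC97 knock-down with the smallest adjusted p among H2A members. H2AC8 (ENSG00000277075, chr6:26216921-26217437, plus strand) had 25.93, 29.16 and 26.36 CPM in the TTC33 knock-down, 43.26, 45.65 and 42.58 CPM in the CCDC97 knock-down and 27.8, 25.77 and 30.09 CPM in control. Its CCDC97 knock-down libraries lay clear of both other groups, which overlapped. The log2 fold change was 0.65 ± 0.09 in the CCDC97 knock-down (SE, edgeR adjusted p = 0.00231) and -0.04 ± 0.09 in the TTC33 knock-down (adjusted p = 0.794), and TTC33 over CCDC97 knock-down gave -0.69 ± 0.09 (adjusted p = 0.000604). H2AC16 (ENSG00000276903, chr6:27865317-27865798, plus strand) had 24.96, 39.01 and 39.94 CPM in the TTC33 knock-down, 59.96, 48.53 and 49.89 CPM in the CCDC97 knock-down and 28.08, 25.66 and 30.88 CPM in control. All CCDC97 knock-down libraries were above all others, and replicates 2 and 3 of the TTC33 knock-down were above all controls. The log2 fold changes of H2AC16 were 0.91 ± 0.16 in the CCDC97 knock-down (adjusted p = 0.0121) and 0.30 ± 0.16 in the TTC33 knock-down (adjusted p = 0.239). Its call in the CCDC97 knock-down was lost without control replicate 1 (adjusted p = 0.0684) and without control replicate 2 (0.0787). A long annotated transcript of H2BC15 covers part of H2AC16, and 1.02% of the H2AC16 exon bases overlap it. The 3 other H2A members that rose, named after their values were seen, had log2 fold changes of 0.39 (H2AC4), 0.41 (H2AC13) and 0.57 (H2AC15). Of the annotated H2AC15 exon bases, 100% overlap H2BC15 on the other strand. Its 75-base stretches, compared on both strands, are likewise 100% shared with other genes. Its counts may thus include reads of H2BC15 or leave its own out, which was not tested.

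H2B members gave the most counts of the 4 types. H2BC12 (ENSG00000197903, chr6:27138293-27146858, minus strand) had 425.7, 545.3 and 532.4 CPM in the TTC33 knock-down, 554.6, 538.2 and 487.2 CPM in the CCDC97 knock-down and 419.7, 419.6 and 470.5 CPM in control. H2BC18, on chromosome 1, had 320, 350.4 and 398.5 CPM in the TTC33 knock-down, 473.7, 481.4 and 457.3 CPM in the CCDC97 knock-down and 377.9, 343.5 and 407.1 CPM in control. H2BC5 (chr6:26158121-26171349, plus strand) had 287.8, 328.1 and 306 CPM in the TTC33 knock-down, 416.8, 495.5 and 417.7 CPM in the CCDC97 knock-down and 348.4, 306 and 358.7 CPM in control. In each of the 3 the CCDC97 knock-down libraries were all above control, and those of the TTC33 knock-down overlapped it. Only H2BC5 of these passed in the CCDC97 knock-down, at a log2 fold change of 0.39 ± 0.09 (SE, edgeR adjusted p = 0.0349), while H2BC12 had 0.27 ± 0.10 (adjusted p = 0.146) and H2BC18 had 0.32 ± 0.09 (0.0643). The H2BC5 call held without CCDC97 knock-down replicate 1 or TTC33 knock-down replicate 1 and was lost without any of the 7 other libraries, with adjusted p between 0.0505 and 0.174. The log2 fold changes in the TTC33 knock-down of H2BC12, H2BC18 and H2BC5 were 0.20, -0.08 and -0.14, with adjusted p of 0.191, 0.577 and 0.325. H2BC12 alone of these changed its call there without TTC33 knock-down replicate 1 (0.30, adjusted p = 0.00969). H2BC18 was called without that library in the CCDC97 knock-down (adjusted p = 0.016), and so was H2BC12 (0.0291), and H2BC18 also without TTC33 knock-down replicate 3 (0.0481).

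Among H2B members the smallest adjusted p in the CCDC97 knock-down belonged to H2BC8, H2BC10 and H2BC4. H2BC8 (ENSG00000273802, chr6:26216200-26216688, minus strand) had 13.21, 13.8 and 13.24 CPM in the TTC33 knock-down, 16.98, 21.24 and 18.1 CPM in the CCDC97 knock-down and 11.61, 11.73 and 12.52 CPM in control. Both knock-downs lay above control without overlap, but only the CCDC97 knock-down passed, with a log2 fold change of 0.65 ± 0.10 (SE, edgeR adjusted p = 0.00508), against 0.17 ± 0.10 (0.272) in the TTC33 knock-down. H2BC10 (chr6:26272931-26273412, plus strand) had 2.603, 2.6 and 2.601 CPM in the TTC33 knock-down, 4.103, 5.22 and 5.178 CPM in the CCDC97 knock-down and 2.432, 2.83 and 2.885 CPM in control. It rose by 0.83 ± 0.13 in the CCDC97 knock-down (edgeR adjusted p = 0.00677), a call lost without control replicate 1 (0.0522). H2BC4 (ENSG00000180596, chr6:26113170-26123926, minus strand), with the C10A stem-loop shown above, had 225, 255.6 and 273.8 CPM in the TTC33 knock-down, 328.3, 361.6 and 329.6 CPM in the CCDC97 knock-down and 244.8, 232.7 and 265.4 CPM in control. It rose by 0.46 ± 0.08 in the CCDC97 knock-down (adjusted p = 0.014), a call lost without control replicate 1 (0.0838), control replicate 2 (0.0964) or CCDC97 knock-down replicate 2 (0.0723). H2BC13, among the members lower in the TTC33 than in the CCDC97 knock-down, had 57.83, 71.08 and 69.28 CPM in the TTC33 knock-down and 115.5, 120.4 and 97.65 CPM in CCDC97 knock-down libraries, which is a log2 difference of -0.75 ± 0.10 (edgeR adjusted p = 0.00113). In that contrast H2BC10 differed by -0.89 ± 0.14 (adjusted p = 0.00208) and H2BC5 by -0.53 ± 0.09 (0.00345).

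H2BC6 was the member called in the TTC33 knock-down. This low-level gene (ENSG00000274290, chr6:26183761-26184230, plus strand) had 3.888, 5.513 and 5.126 CPM in the TTC33 knock-down, 2.052, 1.652 and 1.742 CPM in the CCDC97 knock-down and 2.045, 2.449 and 2.79 CPM in control. All 3 TTC33 knock-down libraries lay above the 6 others, and the CCDC97 knock-down and control overlapped. The log2 fold change was 1.00 ± 0.17 in the TTC33 knock-down (SE, edgeR adjusted p = 0.00509) and -0.41 ± 0.19 in the CCDC97 knock-down (adjusted p = 0.247), and the TTC33 over the CCDC97 knock-down gave 1.41 ± 0.18 (adjusted p = 0.000716). The TTC33 call was kept whichever of the 9 libraries was left out, at an edgeR adjusted p of at most 0.0342. Of the annotated H2BC6 exon bases, 28.2% overlap the gene AL353759.1, and 27.8% of its 75-base stretches occur in other genes, so part of these counts may belong elsewhere, which was not tested.

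H3 has few well-expressed members in these cells. H3C2 (ENSG00000286522, chr6:26031589-26032099, minus strand) had 383.5, 524.2 and 469.8 CPM in the TTC33 knock-down, 596.8, 625.4 and 524.1 CPM in the CCDC97 knock-down and 426, 450.8 and 502.6 CPM in control. H3C10 had 62.59, 93.03 and 87.83 CPM in the TTC33 knock-down, 106.6, 101 and 82.46 CPM in the CCDC97 knock-down and 66.49, 68.9 and 81.71 CPM in control. H3C13, on chromosome 1, had 53.98, 81.97 and 77.65 CPM in the TTC33 knock-down, 102.7, 87.84 and 63.58 CPM in the CCDC97 knock-down and 71.22, 68.76 and 84.88 CPM in control. H3C2 and H3C10 were above all controls in every CCDC97 knock-down library, H3C10 narrowly, and H3C13 overlapped. None of the 3 passed in the CCDC97 knock-down, with log2 fold changes of 0.34 ± 0.11, 0.42 ± 0.15 and 0.18 ± 0.18 (SE) and edgeR adjusted p of 0.117, 0.137 and 0.634. Their TTC33 knock-down log2 fold changes were -0.00 ± 0.11, 0.17 ± 0.15 and -0.07 ± 0.18, with adjusted p of 0.994, 0.475 and 0.812. Without TTC33 knock-down replicate 1, H3C2 (adjusted p = 0.0222) and H3C10 (0.0182) passed in the CCDC97 knock-down, and H3C10 passed as higher in the TTC33 knock-down (0.0371). H3C13 shares 70.3% of its 75-base stretches with other genes. H3C1, named after its values were seen, was the 1 H3 member that rose in the CCDC97 knock-down (0.49 ± 0.12, edgeR adjusted p = 0.0488).

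H4 was the type with the lowest median log2 fold change in the TTC33 knock-down. H4C3 (ENSG00000197061, chr6:26103933-26104337, plus strand) had 305.8, 291 and 255 CPM in the TTC33 knock-down, 416.2, 554.8 and 416.1 CPM in the CCDC97 knock-down and 326.3, 340.6 and 370.4 CPM in control. The 3 groups did not overlap: every TTC33 knock-down library was below control and every CCDC97 knock-down library above it. Neither difference from control passed, at log2 fold changes of -0.28 ± 0.11 in the TTC33 knock-down (SE, edgeR adjusted p = 0.122) and 0.42 ± 0.11 in the CCDC97 knock-down (0.0643), while TTC33 over CCDC97 knock-down gave -0.70 ± 0.12 (0.00283). Once TTC33 knock-down replicate 1 was left out both passed (edgeR adjusted p = 0.0377 and 0.0231). The fall also passed without CCDC97 knock-down replicate 2 (0.0442) and the rise without CCDC97 knock-down replicate 1 (0.0333). H4C5 had 223.7, 314.2 and 288.8 CPM in the TTC33 knock-down, 341.3, 350.5 and 326.5 CPM in the CCDC97 knock-down and 250.3, 271.5 and 280.5 CPM in control. H4C2 had 227.8, 273.4 and 216.1 CPM in the TTC33 knock-down, 307.6, 394.3 and 289.8 CPM in the CCDC97 knock-down and 243.2, 296.5 and 287.9 CPM in control. H4C5 stood above all controls in the CCDC97 knock-down (0.34 ± 0.11, adjusted p = 0.0978; 0.00554 without TTC33 knock-down replicate 1) and H4C2 overlapped control in both knock-downs. Among the 11 tested H4 members 3 had a log2 fold change above 0 in the TTC33 knock-down, against 50.6% of all genes, and in 4 all its libraries lay below control, against 17.8% of all genes. None passed by edgeR. At an unadjusted p under 0.05, 3 were lower, beside 2730 of 18299 genes. DESeq2 called 1 lower, while 16.5% of all genes passed. The median over the H4 members was -0.16 in the TTC33 knock-down, and -0.01 without TTC33 knock-down replicate 1. In the CCDC97 knock-down H4C4, named after its values were seen, was the H4 member that rose (0.64 ± 0.13, edgeR adjusted p = 0.0224).
H4C9 was the other member higher in the TTC33 than in the CCDC97 knock-down. Its levels were 0.835, 0.693 and 1.30 CPM in the TTC33 knock-down, 0.389, 0.529 and 0.387 CPM in the CCDC97 knock-down and 0.967, 0.599 and 0.824 CPM in control. The CCDC97 knock-down was below both other groups, which overlapped, and the log2 difference of TTC33 over CCDC97 knock-down was 1.08 ± 0.32 (SE, edgeR adjusted p = 0.0371). That call was lost without control replicate 3 (adjusted p = 0.0578), CCDC97 knock-down replicate 1 (0.0686), 2 (0.0807) or 3 (0.109), or TTC33 knock-down replicate 3 (0.149). H4C9 lies on the plus strand within the RefSeq bounds of H2BC12, which is on the minus strand, and whether counting used strand is not stated in the available sources.

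The members fall into 3 clusters: 11 on chromosome 1 (chr1:149782689-149887965) and 29 and 20 on chromosome 6 (chr6:25726063-26285534 and chr6:27132316-27893891). In the CCDC97 knock-down 0 of 11 tested members of the chromosome 1 cluster passed by edgeR, with a median log2 fold change of 0.19, although all 11 were above 0. In the 2 chromosome 6 clusters 8 of 21 and 4 of 16 tested members rose, with medians of 0.39 and 0.30, beside 2.07% of all genes called higher. The chromosome 1 cluster holds near-identical copies (H2AC18 and H2AC19, H3C14 and H3C15, H4C14 and H4C15), among which counting cannot place reads with confidence. Of the tested members with over 50% of their 75-base stretches shared with other genes, 2 of 14 rose (median 0.19), against 10 of 34 of those with less (median 0.36). The difference between clusters was not tested.
Grouped by how far annotated transcripts reach past the stem-loop, 2 of 19 tested members annotated over 100 bases beyond it rose in the CCDC97 knock-down (median 0.26), 4 of 8 annotated to end near it (median 0.35) and 6 of 21 with no stem-loop in an annotated transcript (median 0.34), beside 2.07% of all genes. The difference between these classes was not tested. In the TTC33 knock-down the medians of these groups were 0.04, -0.12 and -0.00, and the 1 call, H2BC6, was in the first.
Of the 16 H2A genes, 10 start back to back with an H2B gene, 219 to 331 bases apart on opposite strands by GENCODE release 29, and both genes were tested in 6 of these pairs. In the CCDC97 knock-down both genes of all 6 pairs were above control. The log2 fold changes, H2B gene first, were 0.65 and 0.65 for H2BC8 and H2AC8, 0.50 and 0.41 for H2BC13 and H2AC13, 0.46 and 0.37 for H2BC4 and H2AC6, 0.33 and 0.33 for H2BC11 and H2AC11, 0.34 and 0.31 for H2BC21 and H2AC20, and 0.27 and 0.42 for H2BC12 and H2AC12. In the TTC33 knock-down the values of the same pairs, in the same order, were 0.17 and -0.04, -0.25 and -0.11, 0.02 and 0.08, -0.00 and 0.07, 0.11 and 0.36, and 0.20 and 0.05. By RefSeq coordinates H2BC15 and H2AC15 are also back to back, but annotated H2BC15 exons run over H2AC15, so they were not counted. Their log2 fold changes, H2B gene first, were 0.25 and 0.57 in the CCDC97 knock-down and -0.18 and -0.09 in the TTC33 knock-down.

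The members are GC-rich, with a median GC content of 57.3%, against 48.2% over all genes tested, and GC dependence differed between libraries. The median difference from control in the 25% of genes with the highest GC content, less that in the 25% with the lowest, was -0.08, 0.58 and 0.64 on the log2 scale in TTC33 knock-down replicates 1, 2 and 3, 0.22, -0.35 and -0.33 in the CCDC97 knock-down and -0.01, -0.02 and 0.03 in control. In both knock-downs replicate 1 stood apart from replicates 2 and 3, and the labels name no batch. Without replicate 1 of both knock-downs, 12 members were higher and 4 lower in the TTC33 knock-down, while 48.7% of all genes passed, and 33 were higher and 1 lower in the CCDC97 knock-down, while 35.6% passed. A correction for GC content and length was then fitted within each library. Over the 48 members the median difference from control was -0.23, 0.07 and 0.07 in TTC33 knock-down replicates 1, 2 and 3 before correction and -0.16, -0.09 and -0.09 after it. In the CCDC97 knock-down it was 0.35, 0.45 and 0.20 before and 0.28, 0.49 and 0.24 after. With the correction 24 members rose in the CCDC97 knock-down and 0 fell, the 12 above among them, while 18.7% of all genes passed. Among the genes named above, H2AC12, H2AC20, H2BC12, H2BC18, H3C2, H3C13 and H4C3 joined the calls there. For the TTC33 knock-down 6 members fell and 1 rose with the correction, while 28.0% of all genes passed, and H3C13 was among those that fell (-0.34, edgeR adjusted p = 0.0132). The median of the H2A members in the TTC33 knock-down changed sign, at 0.05 before and -0.11 after, and those of H2B, H3 and H4 were -0.06, -0.00 and -0.16 before and -0.01, -0.14 and -0.22 after.

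**Figure D4:**
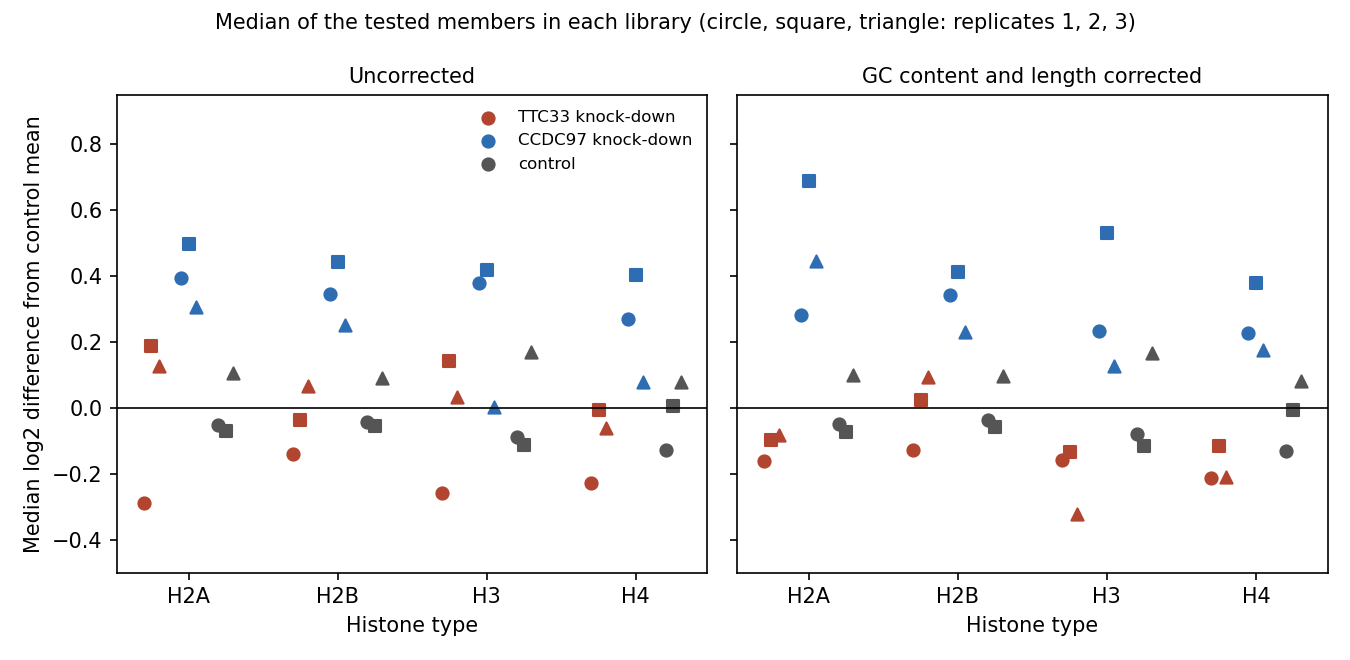
Median log2 difference from the control mean (y axis) of the tested members of each histone type (x axis) in each library, before (left) and after (right) correction for GC content and length. CCDC97 knock-down libraries lie above 0 in all types in both panels. On the left, CCDC97 knock-down replicate 3 is only at 0.002 for H3 and 0.0777 for H4, below control replicate 3 at 0.17 and 0.0796. TTC33 knock-down replicate 1 sits below replicates 2 and 3 on the left, with an all-member median of -0.23.

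Genes that make, process and use core histones were counted from lists written for general roles. Of 25 genes for histone transcription and 3' processing, 1 rose and 1 fell in each knock-down, beside 11.9% and 4.56% of all genes called in the TTC33 and CCDC97 knock-downs. SLBP, whose protein binds the stem-loop, had 71.52, 72.71 and 66.6 CPM in the TTC33 knock-down, 76.97, 80.24 and 85.7 CPM in the CCDC97 knock-down and 85.62, 91.57 and 89.54 CPM in control. It fell in the TTC33 knock-down, by -0.34 ± 0.07 on the log2 scale (SE, edgeR adjusted p = 0.0143), and did not pass in the CCDC97 knock-down (-0.14 ± 0.07, 0.312). The SLBP call was lost without any 1 control library (adjusted p = 0.0525, 0.0817 and 0.0654 for replicates 1, 2 and 3) or TTC33 knock-down replicate 3 (0.0604). NPAT, the coactivator of histone genes, did not pass in either, with -0.04 in the TTC33 and 0.14 in the CCDC97 knock-down (edgeR adjusted p = 0.816 and 0.514), and with GC content and length correction its TTC33 value turned to 0.18 (0.0156). HINFP, an activator of H4 genes, rose in the TTC33 knock-down (0.31, edgeR adjusted p = 0.0449). In the CCDC97 knock-down ZNF473, a component of the U7-dependent processing machinery, rose (0.30, 0.0322), and ZC3H18, which links capped RNA to processing and decay, fell (-0.50, 0.0349). The HINFP call was lost without any 1 control library, TTC33 knock-down replicate 2 or 3 or CCDC97 knock-down replicate 3 (adjusted p from 0.0608 to 0.17). ZNF473 and ZC3H18 lost theirs without any 1 control library, CCDC97 knock-down replicate 2 or 3 or TTC33 knock-down replicate 2, ZNF473 also without TTC33 knock-down replicate 3 (adjusted p from 0.0507 to 0.171).
Of 18 genes for histone mRNA decay, 1 rose and 3 fell in the TTC33 knock-down, and 2 rose and 1 fell in the CCDC97 knock-down, beside 11.9% and 4.56% of all genes called. LSM3, a subunit of the ring that binds RNA ends, rose in both, at 87.65, 92.85 and 94.22 CPM in the TTC33 knock-down and 97.56, 111.4 and 104.8 CPM in the CCDC97 knock-down, against 69.81, 71.78 and 71.82 CPM in control. Its log2 fold changes were 0.36 ± 0.07 (edgeR adjusted p = 0.0101) and 0.56 ± 0.07 (0.00192), and the first was lost without any 1 control library or TTC33 knock-down replicate 3 (adjusted p from 0.0502 to 0.0668). DCP2, the decapping enzyme, fell in the TTC33 knock-down (-0.68, edgeR adjusted p = 0.0342), and its partner DCP1A fell in the CCDC97 knock-down (-0.34, 0.0379). DCP2 lost its call without any 1 control library or TTC33 knock-down replicate 2 or 3 (adjusted p from 0.0928 to 0.134), and DCP1A without any 1 control library, CCDC97 knock-down replicate 2 or 3 or TTC33 knock-down replicate 2 or 3 (from 0.0511 to 0.175).

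The list of other core histone genes holds mainly replication-independent variants, made throughout the cell cycle largely from polyadenylated mRNA, and also H2BU1 and H4-16, which are not such variants. Of its 11 tested genes 3 fell and 0 rose in the TTC33 knock-down, beside 5.44% of all genes called lower, and the median log2 fold change was 0.01, against 0.00 over all genes. In the CCDC97 knock-down 0 passed by edgeR, beside 4.56% of all genes. There 2 were higher at an unadjusted p under 0.05, beside 1947 of 18299 genes. DESeq2 called 1 higher, while 8.04% of all genes passed. H3-3B, 1 of 2 genes for the H3.3 variant, had 264.7, 258.5 and 240.9 CPM in the TTC33 knock-down, 429.4, 529 and 497.7 CPM in the CCDC97 knock-down and 417.6, 422.1 and 427.2 CPM in control. Its log2 fold change was -0.73 ± 0.08 in the TTC33 knock-down (SE, edgeR adjusted p = 0.000346) and 0.20 ± 0.08 in the CCDC97 knock-down (0.178). H2AZ2, which encodes an H2A.Z protein, had 175.7, 148.4 and 148.1 CPM in the TTC33 knock-down, 193.8, 210.4 and 215.4 CPM in the CCDC97 knock-down and 230.7, 238.9 and 225.6 CPM in control. It fell in the TTC33 knock-down by -0.56 ± 0.08 (adjusted p = 0.00185) and had -0.17 ± 0.08 in the CCDC97 knock-down (0.267). Both falls were called whichever library was left out. H2BU1, named after its values were seen, was the third gene of the list that fell (-0.33, edgeR adjusted p = 0.0253), and the 8 others did not pass.
Of 20 histone chaperone genes 3 fell and 0 rose in each knock-down, beside 5.44% of all genes lower in the TTC33 and 2.49% in the CCDC97 knock-down. ASF1B, an H3-H4 chaperone, had 73.96, 76.38 and 82.66 CPM in the TTC33 knock-down, 53.24, 47.9 and 49.5 CPM in the CCDC97 knock-down and 70.5, 70.42 and 72.77 CPM in control, a fall in the CCDC97 knock-down by -0.50 ± 0.07 (edgeR adjusted p = 0.00402). CHAF1B, a subunit of the CAF-1 complex that deposits H3-H4 on new DNA, had 104, 111.5 and 112.7 CPM in the TTC33 knock-down, 91.76, 93.36 and 93 CPM in the CCDC97 knock-down and 120.7, 127 and 129 CPM in control (-0.44 ± 0.06 in the CCDC97 knock-down, 0.00424). Neither of these 2 calls was lost when any 1 library was left out. In the TTC33 knock-down RBBP7, a histone-binding protein, fell by -0.25 (adjusted p = 0.0211) and MMS22L, a partner of a chaperone at replication forks, by -0.48 (0.0339), and both calls were lost without any 1 control library or TTC33 knock-down replicate 2 or 3 (adjusted p from 0.0781 to 0.135). RBBP7 also lost its call with the GC content and length correction (-0.15, 0.0586).
Of 28 S phase genes 2 rose and 1 fell in the TTC33 knock-down, beside 11.9% of all genes called. In the CCDC97 knock-down 0 passed by edgeR, beside 4.56% of all genes. There 3 were higher and 5 lower at an unadjusted p under 0.05, beside 1947 and 1818 of 18299 genes. DESeq2 called 1 higher and 4 lower there, while 8.04% of all genes passed. TYMS, thymidylate synthase, fell in the TTC33 knock-down (-0.32 ± 0.06, edgeR adjusted p = 0.00892; 0.0597 without control replicate 2) and UNG, a DNA repair glycosylase, rose (0.23 ± 0.06, 0.0353). The UNG call was lost without any 1 control library, TTC33 knock-down replicate 2 or 3 or CCDC97 knock-down replicate 3 (adjusted p from 0.0593 to 0.153). The median log2 fold change of the 28 was 0.10 in the TTC33 and 0.02 in the CCDC97 knock-down.
Of 5 tested genes for linker histones, which bind DNA between nucleosomes, 2 fell in the TTC33 knock-down, beside 5.44% of all genes, and 1 rose in the CCDC97 knock-down, beside 2.07%. H1-3 had 71.36, 72.36 and 66.71 CPM in the TTC33 knock-down, 195.9, 253.5 and 212.4 CPM in the CCDC97 knock-down and 105.6, 116.2 and 113.6 CPM in control, with log2 fold changes of -0.67 ± 0.09 (edgeR adjusted p = 0.00165) and 0.98 ± 0.09 (0.000244), and H1-2 fell in the TTC33 knock-down by -0.41 ± 0.07 (0.0052).
Of 20 abundant RNAs without a poly(A) tail 9 were tested, and RN7SK, RMRP and RPPH1 were listed at 0 counts in every library. RN7SL1 rose in the TTC33 knock-down (0.92, edgeR adjusted p = 0.0189; 0.54 in the CCDC97 knock-down, 0.162) and SCARNA7 in the CCDC97 knock-down (0.51, 0.0332; 0.24 in the TTC33 knock-down, 0.192), and neither held when certain single libraries were removed. RN7SL1 lost its call without any 1 control library or TTC33 knock-down replicate 2 or 3 (adjusted p from 0.0692 to 0.0857), and SCARNA7 without control replicate 1 or 2, CCDC97 knock-down replicate 2 or 3 or TTC33 knock-down replicate 2 (from 0.0527 to 0.164). How the libraries were selected for or against poly(A) tails is not stated in the available sources, and its part in the histone results was not tested.

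**Figure D5:**
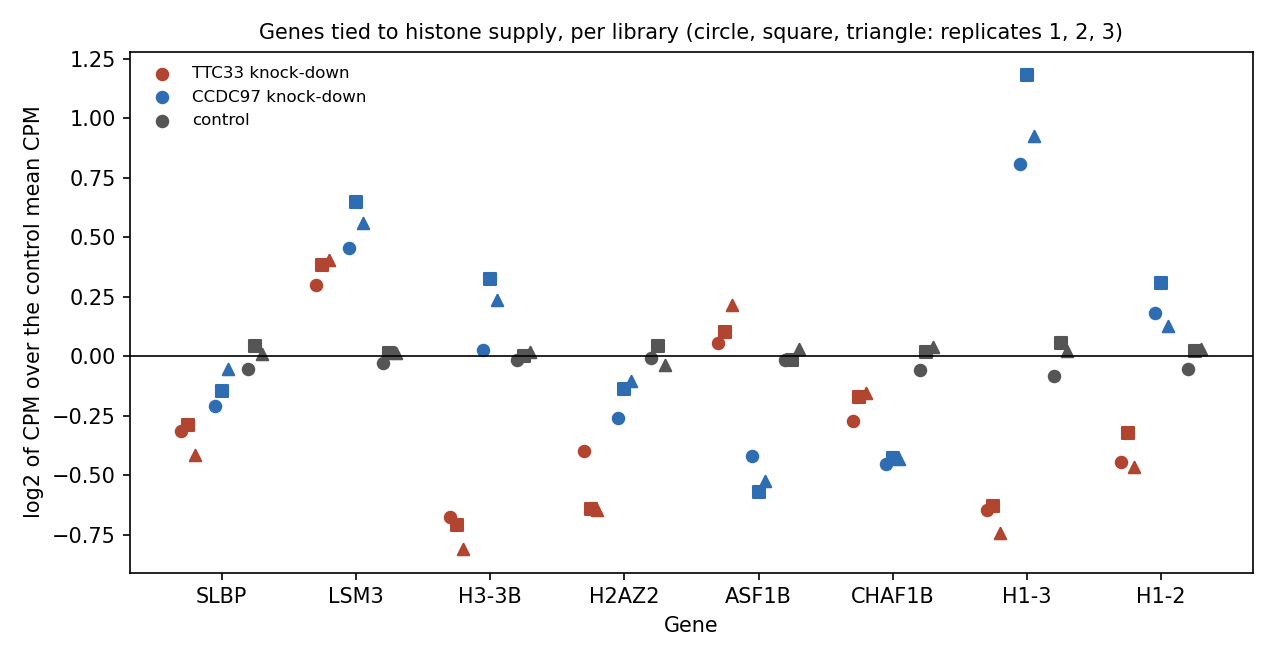
Log2 ratio of CPM to the control mean (y axis) of 8 genes tied to histone supply (x axis) in each library, by group; symbols mark replicates. H1-3 is above control in the CCDC97 knock-down and below it in the TTC33 knock-down, LSM3 is above control in both, and SLBP, H3-3B and H2AZ2 fell in the TTC33 knock-down.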

How the data were processed

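The 9 libraries of total RNA were grouped and numbered by the labels. The authors deposited raw counts of reads assigned to each gene, without normalization, in tables marked R12 and U. The submitters' processing notes name Trimmomatic 0.39, HISAT2, HTSeq 2.0.1 and the build GRCh38. What R12 and U stand for, the annotation release, the strand setting and the library kit are not stated there. R12 counts were used (21764203 to 36110891 per library), and R12 plus U, of which U made up 6.55% to 11.9%, was an alternative. Entries that name no gene held 33.4% to 57.9% of an R12 table and were left out.

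All genes were fitted together in edgeR 4.0.16 under R 4.3.3. After filterByExpr (18299 genes) and TMM scaling, a quasi-likelihood model of the 3 groups was fitted to all 9 libraries, with 6 residual degrees of freedom. Tests were two-sided, with Benjamini-Hochberg adjustment across the genes fitted and a threshold of 0.05. A gene that passed is said to have risen or fallen. The fit was checked on simulated counts. Members, gene lists and named genes were chosen with earlier results of these data known. The text names, per histone type, the 3 members with the highest mean CPM, per comparison and direction up to 5 called members with the smallest adjusted p, then SLBP and NPAT, and per list up to 2 called genes in each comparison with control.

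Alternatives were other scaling factors and filters, DESeq2 1.42.0, fits of only 2 groups, a replicate block, R12 plus U, each library left out, and a GC content and length correction fitted per library with mgcv 1.9.3 (98.6% of genes had values). Leaving out replicate 1 of both knock-downs together was added after seeing the data. Stem-loops were searched past the stop codon in GENCODE release 29 transcripts (58 members matched by gene ID, H3C2 and H3C3 by older symbol). Promoter windows and gene coordinates are those of RefSeq on GRCh38.p14.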

Additional observations from a re-analysis of the deposited data

Results flagged for a closer look

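The smaller U tables of each sample were not used for the comparisons. Their levels are given as CPM without TMM scaling, per 1e6 gene counts of the U table. In them, the summed H2A members were higher in every CCDC97 knock-down library than in every control library. The margin was narrow, with 1398.5 CPM in CCDC97 knock-down replicate 3 and 1354.3 CPM in control replicate 3. The means were 1585 ± 182 CPM in the CCDC97 knock-down and 1259 ± 84.7 CPM in control (SD, n = 3), a ratio of 1.26. For H2B, H3 and H4 the ratios were 1.22, 1.26 and 1.28, and the libraries of the 2 groups overlapped. TTC33 knock-down libraries overlapped control in all 4 types, with ratios of 1.06 to 1.11. The U tables belong to the same libraries as the R12 tables and are not independent samples.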

How the results depend on the processing

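Summed levels per histone type moved by less than the spread between replicates under every alternative run. Counts of members called did not hold as well. For the TTC33 knock-down against control, higher calls (1, beside 11.9% of all genes called) became 3 with no filter on low counts (10.2%). They became 0 at a mean of at least 5 CPM (16%) and 12 without replicate 1 of both knock-downs (48.7%). With 1 library left out they ranged from 1 to 9 (2.96% to 34.9% of all genes). Lower calls (0) became 4 with no filter, 6 with the GC content and length correction (28% of all genes called) and 7 with that and the replicate block (25.4%). They became 1 by DESeq2 (16.5%) and 4 without both replicates 1, and ranged from 0 to 2 with 1 library left out. For the CCDC97 knock-down against control, higher calls (12, beside 4.56% of all genes called) became 25 with no filter (3.65%). They became 24 with the GC content and length correction (18.7%) and 23 with that and the replicate block (16.4%). DESeq2 gave 19 (8.04%), and a fit of only the 2 groups gave 22 (7.48%). Without both replicates 1 there were 33, and 1 was lower (35.6%). With 1 library left out higher calls ranged from 2 to 27 (1.09% to 10.6% of all genes). For the TTC33 against the CCDC97 knock-down, higher calls (2, beside 21.5% of all genes called) became 0 at a mean of at least 5 CPM (30.7%). They became 1 in a fit of only the 2 groups (8.4%) and 3 without both replicates 1 (55.2%). With 1 library left out there were 1 to 3 (8.17% to 41.6% of all genes). Lower calls (24) became 14 in the fit of only the 2 groups, with 13 to 23 when 1 library was left out.

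With the replicate number as a block, 4 members rose and 0 fell in the CCDC97 knock-down. There 1.31% of all genes passed, against 4.56% without the block. With it, 1 member was higher and 18 were lower in the TTC33 than in the CCDC97 knock-down. That contrast called 10.1% of all genes, against 21.5% without the block. Between the TTC33 knock-down and control, 1 member rose and 0 fell with the block. All-gene calls there were 4.13%, against 11.9% without the block. Correlations of same-numbered libraries ran from -0.504 to 0.0936, and 8 of 18 were the best for their library. The numbers were therefore not treated as pairs. These correlations include the GC dependence of each library, and whether same-numbered libraries share a batch was not tested.

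Small log2 fold changes turned direction, none of them called in the fit as reported. Some were called once turned. With the GC content and length correction, NPAT passed as higher in the TTC33 knock-down than in control (edgeR adjusted p = 0.0156). With it, H2AC20 passed as lower in the TTC33 than in the CCDC97 knock-down (edgeR adjusted p = 0.0336). For the TTC33 knock-down against control, H2AC12 was -0.122 with the GC content and length correction, also with the block, NPAT was 0.183 and 0.184 in those fits, H3C2 was 0.0074 with upper-quartile factors, and H3C2 and H3C13 were 0.112 and 0.0922 without both replicates 1. With 1 library left out, H2AC11 ranged from -0.0579 to 0.244, H2AC12 from -0.0454 to 0.189, H3C2 from -0.108 to 0.111, H3C13 from -0.189 to 0.0901, H4C5 from -0.0622 to 0.172 and NPAT from -0.163 to 0.0156. For the TTC33 against the CCDC97 knock-down, H2AC20 was -0.237 and -0.239 and NPAT 0.0991 and 0.0993 with the correction without and with the block, and H2BC12 and H3C13 were 0.0708 and 0.0651 without both replicates 1. With 1 library left out, H2AC20 ranged from -0.0948 to 0.216 and H2BC12 from -0.136 to 0.0324. The cause of these changes was not tested.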
